A study of Mus musculus with 11 samples.

Results

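Neurons and neuroblasts that were recovered together with vessels and microglia from mouse cerebral cortex are described here. They were picked by their UMIs (unique molecular identifiers, each tagging 1 captured transcript copy). A cell was taken as neuronal when it held at least 5 UMIs of 4 neuronal genes together, Snap25, Syt1, Tubb3 and Dcx. Cells with more than 2 UMIs of the endothelial genes Cldn5 and Flt1 or of the microglial genes C1qa and C1qb were left out. So were cells with more than 8 UMIs of the astrocyte genes Slc1a2 and Aldoc, or with 10% or more of their UMIs from Ttr, a gene of the choroid plexus. These counts chose 237 of 50625 cells, which is 0.468% (95% exact binomial interval 0.411 to 0.532; intervals and limits given here cover counting error only).

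The cells came from 11 droplet libraries of C57BL/6 mice, which per the paper were female in all groups unless it stated otherwise. The 4 Juvenile libraries were made at postnatal day 10 and the 3 Adult libraries at 7 to 11 weeks of age, each from pooled tissue of 6 mice. The 2 Aged libraries were made at 18 months and the 2 EAE libraries at the peak of experimental autoimmune encephalomyelitis, each from pooled tissue of 3 mice. EAE mice were females of 7 to 11 weeks immunized with the myelin peptide MOG35–55 in complete Freund's adjuvant and given pertussis toxin. In every group the olfactory bulbs and cerebellum had been removed, meninges had been dabbed away on filter paper, and myelin had been depleted on an albumin gradient. The study was made for vascular and perivascular cells and set Tubb3+ neurons aside as contamination, so the neurons here are those that happened to pass through that preparation. Because each library pools several animals, p-values measure only the spread between these libraries.

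Neuroblasts are young neurons that still migrate, and Dcx encodes a microtubule-binding protein they need to do so. In the postnatal forebrain they arise from dividing progenitors along the lateral ventricles, and most of them go on to become GABAergic interneurons. Homeobox genes of the Dlx family set that inhibitory fate, and Gad1 and Gad2 encode the enzymes that make the transmitter GABA. Cajal-Retzius cells are early-born neurons of the cortical surface that secrete reelin, and most of them are lost in the first weeks after birth.

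The 11 libraries held 15755504 to 34326349 UMIs each over 26921 genes. Neuronal cells had a median of 4284 UMIs in Juvenile, 2780 in Adult, 2137.5 in Aged and 2642 in EAE libraries. Cells with at least 1500 UMIs were therefore thinned to 1500 UMIs before shares of cells with a given transcript were tested. Shallower cells were left out of the thinned shares, which kept 159 of 164 Juvenile, 32 of 34 Adult, 7 of 10 Aged and 28 of 29 EAE neuronal cells. Shares of cells with a panel are given without and with thinning. No barcode was shared between neuronal cells of different libraries, and kept cells of any pair of libraries shared 10 to 113 barcodes. Juvenile 1 and 2, Juvenile 3 and 4, and Adult 2 and 3 were near-identical pairs. In endothelial cells (at least 10 UMIs of Cldn5 and Flt1) their median absolute log2 difference over 1712 genes was 0.0687, 0.0542 and 0.0432. It was 0.148 to 0.167 across the Juvenile pairs and 0.162 between Adult 1 and either other Adult library. Each such pair was summed to 1 unit for tests of genes. The EAE libraries (0.0431) and the Aged libraries (0.0464) were as alike but were kept as separate units, and the tests were repeated with these pairs summed as well, an alternative added after the data were seen. Adult 1 stood apart from the other Adult libraries, and it supplied 26 of 34 Adult neuronal cells.

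The label fitted the cells in part. A list of 15 further neuronal genes that were not in the rule, such as Stmn2, Map1b and Elavl4, summed to between 9579 and 17695 CPM (UMIs per 1000000 UMIs of the cells summed) in the neuronal cells of each library. It summed to at most 246 CPM in microglial cells and at most 391 CPM in endothelial cells. Many genes of finished cortical neurons were at or near 0, with values given after the clusters. Scrublet called 4 of the 237 cells doublets (818 of all 50625). In 5 cells, 4 Juvenile and 1 Adult, the summed markers of some other lineages exceeded the neuronal ones. Those lineages were oligodendrocytes and their precursors, ependymal, choroid plexus, mural, fibroblast and lymphocyte cells. Red blood cell, endothelial, microglial and astrocyte markers were not in that sum. Red blood cell markers made up 1140 of the 4122 UMIs of 1 cell of Adult 1.

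Neuronal cells were most frequent in the Juvenile libraries, but the Juvenile and Adult libraries overlapped. They were 1.31%, 0.549%, 1.44% and 1.34% of kept cells in Juvenile 1 to 4 (35, 14, 60 and 55 cells). They were 0.817%, 0.106% and 0.103% in Adult 1 to 3 (26, 4 and 4 cells), 0.118% and 0.0842% in the Aged libraries (6 and 4 cells), and 0.216% and 0.136% in the EAE libraries (18 and 11 cells). Adult 1 lay above Juvenile 2 and below the other Juvenile libraries. That order held only after the exclusions. Before them, 47 of 3184 kept cells of Adult 1 had at least 5 UMIs of the 4 neuronal genes. In Juvenile 1 to 4 such cells were 39 of 2678, 19 of 2552, 67 of 4168 and 59 of 4109, so Adult 1 lay above all but Juvenile 3.

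**Figure D1:**
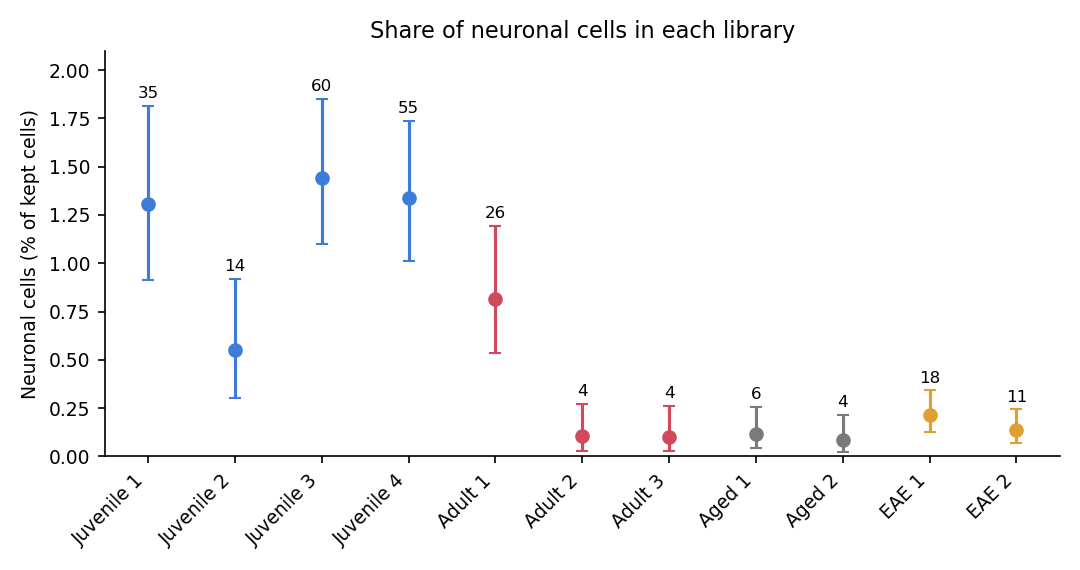
Share of kept cells that were neuronal (vertical axis, percent) in each of the 11 libraries, with exact 95% binomial intervals as bars and the number of neuronal cells beside each point. Juvenile 1, 3 and 4 lie between 1.31% and 1.44%, Adult 1 at 0.817%, and all other Adult, Aged and EAE libraries at or below 0.216%.

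Pooled over libraries the share was 1.21% in Juvenile (1.04 to 1.41, of 13507 cells), 0.313% in Adult (0.217 to 0.437, of 10855), 0.102% in Aged (0.0487 to 0.187, of 9845) and 0.177% in EAE (0.118 to 0.254, of 16418). Over libraries the mean was 1.16% ± 0.410 (SD, n = 4) in Juvenile and 0.342% ± 0.411 (n = 3) in Adult, a difference of 0.817 percentage points. The two-sided exact permutation p was 0.114, or 0.457 adjusted over the 4 shares that were tested, and the smallest p that 4 against 3 libraries allow is 0.0571. With the near-identical libraries summed, the 2 Juvenile units (0.937% and 1.39%) lay above the 2 Adult units (0.817% and 0.104%), and the exact permutation p was 0.333, the smallest that 2 against 2 allow. Without Adult 1 the difference was 1.05 points and the groups did not overlap. When kept cells of at least 1500 UMIs were thinned to that number before the rule was applied, the difference fell to 0.295 points. The means were then 0.60% ± 0.232 against 0.306% ± 0.455 of such cells (exact permutation p = 0.286). The share also depends on how many other cells were captured. There were 4408 microglial cells in Juvenile and 1239 in Adult libraries, and 2936 and 4400 endothelial cells (at least 10 UMIs of C1qa and C1qb, or of Cldn5 and Flt1).

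Most cells were chosen by Tubb3, the tubulin of young and adult neurons. Tubb3 alone reached 5 UMIs in 193 cells (81.4%), whereas the synaptic genes Snap25 and Syt1 together did so in 17 cells (16 Juvenile, 1 Adult) and Dcx alone in 12. At least 1 UMI of Tubb3 was found in 232 cells, of Dcx in 157 (66.2%), of Snap25 in 79 (33.3%) and of Syt1 in 38 (16%). Of 302 cells with enough UMIs of the 4 genes, 30 failed the endothelial limit, 41 the microglial, 4 the astrocyte and 4 the Ttr limit. All limits were met by 164 of 184 such Juvenile, 34 of 60 Adult, 10 of 13 Aged and 29 of 45 EAE cells, so they removed a larger part in Adult. The 24 cells just inside the threshold, with 5 UMIs, held 10042 CPM of the further neuronal genes, and the 28 cells just outside, with 4, held 9016 CPM. Markers of the other lineages summed above came to 49101 CPM in the former and 2570 CPM in the latter. Without the 2 cells that held most of them, they came to 1920 CPM in the former.

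Nearly all neuronal cells carried either GABAergic markers or Cajal-Retzius or glutamatergic markers. Panels of 8 markers were counted in each cell, and a cell was assigned to a panel with at least 2 UMIs. GABAergic markers (Gad1, Gad2, Slc32a1, Dlx1, Dlx2, Dlx5, Dlx6os1 and Lhx6) without the other panels were found in 155 cells. Cajal-Retzius markers such as Reln, Ndnf and Calb2 without GABAergic ones were found in 63 cells, glutamatergic markers alone in 9, GABAergic markers with another panel in 2, and no panel in 8. The GABAergic panel met the glutamatergic and the Cajal-Retzius panel in 1 cell each, whereas 51 of the 61 cells with glutamatergic markers also carried Cajal-Retzius markers. Calb2 is in the Cajal-Retzius panel but marks other young neurons too, and in cluster 3 below it made up the whole panel (1937 CPM, with the other 7 genes at 0 UMIs), so the panel does not by itself mark Cajal-Retzius cells.

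**Figure D2:**
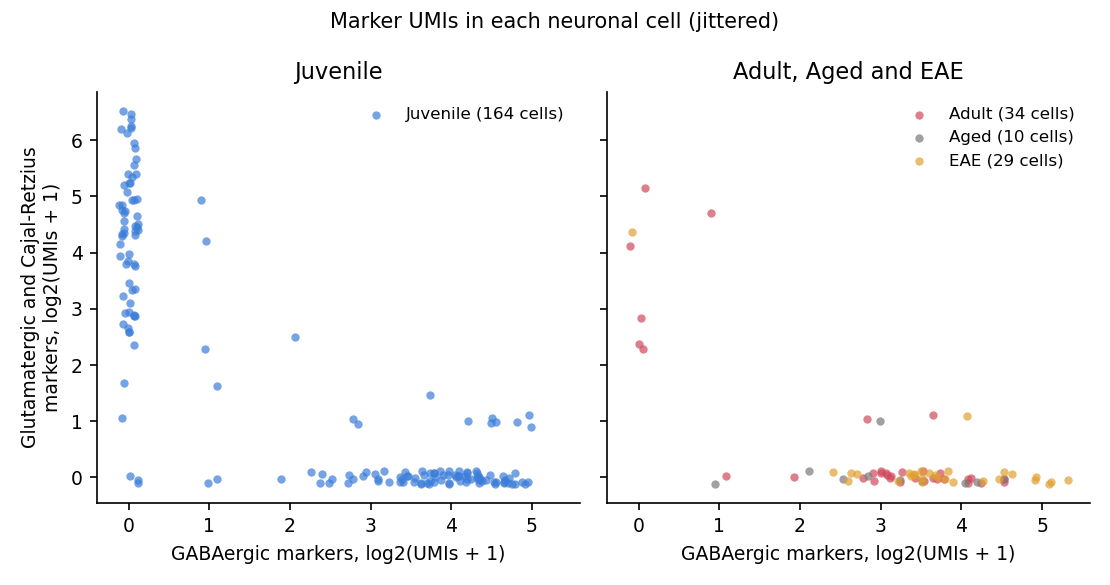
UMIs of the GABAergic panel (horizontal axis) against UMIs of the glutamatergic and Cajal-Retzius panels together (vertical axis), both as log2(UMIs + 1), with 1 jittered point per neuronal cell, Juvenile cells on the left and Adult, Aged and EAE cells on the right. The cells lie along the 2 axes rather than between them, and most cells of the older and EAE mice lie along the GABAergic axis.

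Cells with and without GABAergic markers differed in which neuronal genes had selected them, which is a description, since the rule used those genes. In cells with GABAergic markers alone Tubb3 stood at 3298 CPM, Dcx at 458 CPM, Snap25 at 70.8 CPM and Syt1 at 10.1 CPM. In cells with Cajal-Retzius markers Tubb3 stood at 1638 CPM, Dcx at 232 CPM, Snap25 at 383 CPM and Syt1 at 272 CPM, which averages over the unlike clusters 3 and 5 below (Syt1 at 0 and 488 CPM). All 17 cells that Snap25 and Syt1 could have selected by themselves carried Cajal-Retzius markers, and 0 carried GABAergic markers. The homeobox gene Dlx1 had 1077 CPM in the former and 3.36 CPM in the latter, and Gad2 had 374 CPM and 0.

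The share of cells with each panel varied between libraries and, over pooled cells, between groups. Cells with GABAergic markers were 93 of 164 in Juvenile (56.7%, exact 95% interval 48.8 to 64.4), 27 of 34 in Adult (79.4%, 62.1 to 91.3), 9 of 10 in Aged and 28 of 29 in EAE libraries (96.6%, 82.2 to 99.9). By library the share was 34.3%, 28.6%, 61.7% and 72.7% in Juvenile 1 to 4 and 88.5%, 75% and 25% in Adult 1 to 3, so these groups overlapped. Without Adult 1 it was 4 of 8 Adult cells (50%), below the pooled Juvenile share. Cells with Cajal-Retzius and no GABAergic markers were 57, 5, 0 and 1. After thinning to 1500 UMIs, GABAergic markers were found in 50.9% of Juvenile, 78.1% of Adult, 85.7% of Aged and 96.4% of EAE cells, against 0.0914% of Juvenile and 0% of Adult microglial cells. Cajal-Retzius markers were found in 30.8%, 15.6%, 0% and 3.57%, and the Adult cells that carried them included all 3 cells of Adult 3 that were deep enough. These panels were counted as a description with no test.

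Clustering of the 237 cells, without the genes of the lists tested, gave 6 clusters. Cluster 1 (62 cells: 38 Juvenile, 3 Adult, 4 Aged and 17 EAE) was led by Gm14204, Tiam2, Spon1, Dlx6os1, Gad2 and Nrxn3 and is called GABAergic-like. It held Tubb3 at 5062 CPM and Dcx at 726 CPM, both highest of the 6 clusters, with Dlx1 at 1262 CPM and the homeobox gene Meis2 at 1471 CPM. Cluster 2 (45 cells: 38, 1, 1 and 5) was led by the mitotic genes Ccnb1, Spc25, Plk1 and Cdc20. Its 18-gene cell cycle list summed to 14615 CPM and its GABAergic panel to 3168 CPM, with Dlx1 at 922 CPM and Dlx2 at 1021 CPM, so mitotic and inhibitory lineage genes stood together in it.

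Cluster 3 (41 cells: 37 Juvenile and 4 Adult) was led by Neurod1 and Tac2 and held Neurod2 at 341 CPM, Neurod6 at 291 CPM, Emx1 at 347 CPM and Eomes at 201 CPM. These are transcription factors of the excitatory lineage, and the cluster is called glutamatergic-like. It also held Igfbpl1 at 5065 CPM, Calb2 at 1937 CPM and Prox1, a gene of dentate granule neurons, at 336 CPM. Cluster 5 (33 cells: 30 Juvenile, 2 Adult and 1 EAE) is called Cajal-Retzius-like. Reln, which encodes reelin, stood at 3685 CPM in 32 of its 33 cells, with Ndnf at 1259 CPM and Trp73 at 331 CPM. Its Snap25 and Syt1 levels (614 and 488 CPM) were the highest, whereas Tubb3 (687 CPM) and Dcx (48.2 CPM) were the lowest. Igfbpl1, at 712 CPM or more in the other 5 clusters, was at 0 UMIs there.

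Clusters 4 and 6 were not named. Cluster 4 (33 cells, 22 of them from Adult 1) was led by the globin genes Hba-a1 (4238 CPM), Hbb-bs (8819 CPM) and Hba-a2. Most of these globin UMIs came from 1 cell of Adult 1. That cell held 627 UMIs of Hbb-bs, against at most 7 in each other Adult 1 cell. The cluster held Ttr at 38067 CPM and the choroid gene Enpp2 at 1335 CPM beside a GABAergic panel of 4446 CPM and Meis2 at 2070 CPM. Cluster 6 (23 cells: 19 Juvenile and 4 EAE) was led by Gsn and Gltp. The clusters' leading genes and sizes are descriptions of the same cells that were clustered.

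**Figure D3:**
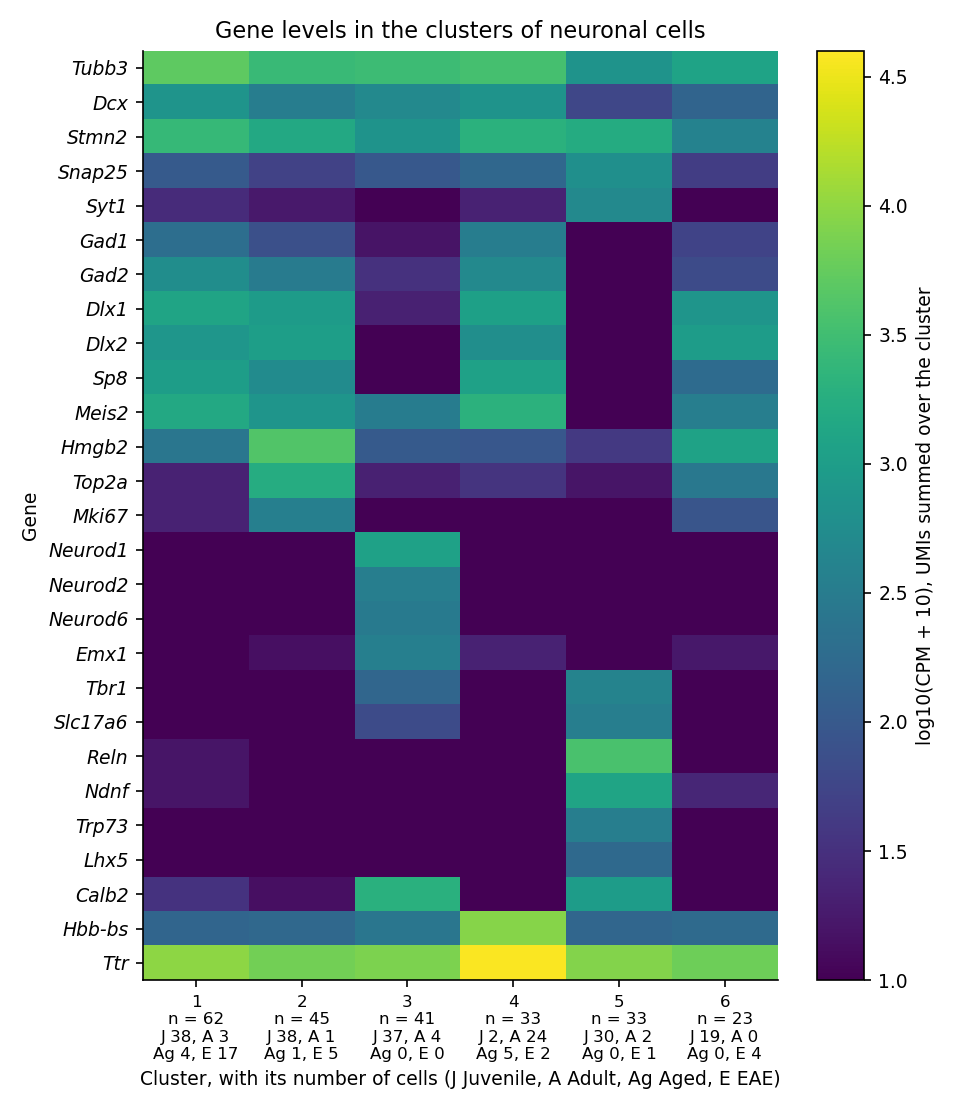
Levels of 27 genes (vertical axis) in the 6 clusters of neuronal cells (horizontal axis, with the number of cells of each group), as log10(CPM + 10) of UMIs summed over a cluster. Dlx1 and Dlx2 stand at 588 CPM or more in clusters 1, 2, 4 and 6, Gad2 at 306 CPM or more in clusters 1, 2 and 4 and at 57.0 CPM in cluster 6, the Neurod genes are highest in cluster 3, and Reln, Ndnf, Snap25 and Syt1 in cluster 5.

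Many genes of finished cortical neurons were at or near 0, and others were found in some cells. Over the 996012 UMIs of all 237 cells, 0 UMIs were found of Slc17a7 and Slc30a3 (glutamate and zinc transport into vesicles of cortical pyramidal neurons), of Lhx6, Sst, Pvalb and Vip (cortical interneuron classes), and of Slc12a5, Nefh and Th. A count of 0 allows up to 3.01 CPM. Slc12a5 encodes KCC2, the chloride exporter that appears as neurons mature, and Slc12a2, the chloride importer NKCC1, had 16 UMIs. The receptor gene Grin2b, typical of young neurons, had 48 UMIs and Grin2a, which follows it, had 1. The kinase gene Camk2a had 2 UMIs, the neurofilament gene Nefl 2 and Npy 2. Syn2, which encodes a synaptic vesicle protein, had 154 UMIs, 152 of them Juvenile. Rbfox3, which encodes the neuronal nuclear protein NeuN, had 65 UMIs in 34 cells, and the synaptic vesicle genes Syn1 and Sv2a had 69 UMIs in 49 cells and 75 UMIs in 41 cells. In all 50625 kept cells the counts of Pvalb (302), Slc12a5 (240) and Lhx6 (235) were above 0, so these genes could be counted.

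Inhibitory genes were measured next, starting with the GABA-synthesizing enzymes. Gad1 (mm10, chromosome 2, 70553072 to 70602014, plus strand) stood at 22.2, 50.6, 45.6 and 59.4 CPM in Juvenile 1 to 4 and at 223, 92.5 and 0 CPM in Adult 1 to 3. It stood at 474 and 506 CPM in Aged and at 218 and 226 CPM in EAE cells. Gad2 (chromosome 2, 22622205 to 22693874, plus strand) stood at 72.0, 50.6, 179 and 267 CPM in Juvenile, 377, 463 and 0 CPM in Adult, 338 and 337 CPM in Aged and 529 and 613 CPM in EAE cells. For both genes all Aged and EAE libraries lay above all Juvenile libraries, and the Adult libraries lay on both sides of them. The 0 of Adult 3 came from 4 cells, the values of Adult 2 from 4 and those of Aged 1 and 2 from 6 and 4, so each rested on few UMIs.

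At least 2 UMIs of Gad1 and Gad2 together (Gad1+Gad2) were found, after thinning, in 10 of 159 Juvenile cells (6.29%, exact 95% interval 3.06 to 11.3) and 7 of 32 Adult cells (21.9%, 9.28 to 40.0). They were found in 2 of 7 Aged and 9 of 28 EAE cells (32.1%, 15.9 to 52.4). In microglial cells, taken as background, they were found in 0 of 4376 Juvenile and 0 of 950 Adult cells, which allows up to 0.0686% and 0.316%. The median depth before thinning was 4343 UMIs in these Juvenile and 2979 in these Adult neuronal cells. Without thinning the shares were 22.6%, 47.1%, 50% and 65.5%, in the same order of groups. Over libraries the mean was 5.02% ± 3.58 (SD, n = 4) in Juvenile and 16.3% ± 14.2 (n = 3) in Adult, with a two-sided exact permutation p of 0.286 (adjusted 0.571). The difference was within the spread of the Adult libraries, which was 24%, 25% and 0%. Over units the means were 5.68% and 19.1% without overlap (exact permutation p = 0.333, the smallest possible).

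Dlx1 and Dlx2 are neighbours on chromosome 2, 9.43 kb apart on opposite strands. Dlx1 (71528113 to 71533981) stood at 338, 338, 566 and 730 CPM in Juvenile 1 to 4, at 922, 740 and 268 CPM in Adult 1 to 3, at 1015 and 1180 CPM in Aged and at 1479 and 936 CPM in EAE cells. Juvenile 1 and 2 were lower than Juvenile 3 and 4, and Adult 3 was the lowest library. Dlx2 (71543408 to 71546754) stood at 404, 304, 544 and 640 CPM in Juvenile, 475, 185 and 67.1 CPM in Adult, 1150 and 1011 CPM in Aged and 1526 and 387 CPM in EAE cells. Its Adult values lay within or below the Juvenile range.

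After thinning, Dlx1 was found in 67 of 159 Juvenile (42.1%), 19 of 32 Adult (59.4%), 5 of 7 Aged and 20 of 28 EAE cells (71.4%), against 0.251% of Juvenile and 0.316% of Adult microglial cells. The means over libraries were 35.6% ± 22.8 (n = 4) in Juvenile and 39.3% ± 35.2 (n = 3) in Adult (exact permutation p = 1). With the near-identical libraries summed to units they were 34.4% and 48.3% (exact permutation p = 0.667, with 0.333 the smallest possible). Dlx2 was found in 54 Juvenile (34.0%), 14 Adult (43.8%) and 18 EAE cells (64.3%), with means of 29.0% ± 13.9 and 25.7% ± 26.0 in Juvenile and Adult libraries (exact permutation p = 0.857). For Dlx2 the pooled shares and the library means differed in order, and Adult 1 held most of the pooled Adult cells. Over units the Dlx2 means were 29.6% in Juvenile and 33.1% in Adult, with overlap. Slc17a7 was found in 0 of 159 Juvenile and 0 of 32 Adult cells, which allows up to 1.89% and 9.38%.

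In the test across all genes no gene passed between Juvenile and Adult neuronal cells. UMIs were summed per unit with at least 10 neuronal cells, which left Juvenile 1+2, Juvenile 3+4, Adult 1, EAE 1 and EAE 2, so the only Adult unit was assumed to vary as the others did. The spread was thus estimated from the 2 Juvenile units and the near-identical EAE libraries. With edgeR's quasi-likelihood test 0 of 2209 genes had an adjusted p under 0.05 (percent called 0) and 464 had an unadjusted p under 0.05. DESeq2 on the same sums called 5. The smallest adjusted p was 0.0995. EdgeR called 100 genes when the near-identical libraries entered as separate replicates, 64 without Juvenile 1+2 and 39 without Juvenile 3+4. With the EAE and Aged pairs summed it called 0 of 3042, with 810 at an unadjusted p under 0.05. Log2 differences are Juvenile against Adult and positive where Juvenile was higher, and their median over all genes was 0.419, or 0.154 with RLE in place of TMM scaling.

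Gad1 differed by -2.13 on the log2 scale (SE 0.60, edgeR adjusted p = 0.132), from 29.2 and 51.6 CPM in the Juvenile units to 223 CPM in Adult 1. Gad2 differed by -1.09 (SE 0.68, adjusted p = 0.385) and Dlx1 by -0.66 (SE 0.53, adjusted p = 0.495). When every unit was kept and Adult 1 was left out, so that Adult 2+3 with 8 cells stood for Adult, these 3 differences were 0.68, 0.18 and 0.65, so their direction rested on Adult 1. Of 23 genes of GABAergic identity, 15 passed the filter on low counts, 0 were called, and their median log2 difference was -1.25. Among its most abundant members, Meis2 differed by -1.93 (adjusted p = 0.109) and Sp8, a zinc finger gene of olfactory bulb interneurons, by -1.89 (adjusted p = 0.0995). Dlx6os1, a noncoding transcript that overlaps Dlx6 on the other strand, differed by -2.06 (adjusted p = 0.132). Whether reads were counted by strand is not given in the sources used here, so Dlx6os1 and Dlx6 may share reads.

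As sums, the Cajal-Retzius and glutamatergic panels were low in Adult 1, in Aged cells and in both EAE libraries, but not in all Adult libraries. The Cajal-Retzius panel summed to 1336 to 2329 CPM in the Juvenile libraries and to 83.8, 0 and 4697 CPM in Adult 1 to 3, so that Adult 3, with 4 cells, was the highest library. It summed to 15.6 and 452 CPM in EAE 1 and 2. The glutamatergic panel summed to 726, 574, 280 and 276 CPM in Juvenile 1 to 4 and to 55.8, 555 and 403 CPM in Adult 1 to 3, and to 0 and 161 CPM in EAE 1 and 2. Reln stood at 792, 321, 889 and 670 CPM in Juvenile 1 to 4 and at 0 in Adult 1, Adult 2 and both Aged libraries. It stood at 604 CPM in Adult 3 and at 15.6 and 323 CPM in EAE 1 and 2, the latter just above Juvenile 2. Only 1 EAE cell held 2 or more UMIs of the Cajal-Retzius panel. Calb2, which encodes the calcium-binding protein calretinin, stood at 753, 1721, 641 and 178 CPM in Juvenile and at 69.8, 0 and 1879 CPM in Adult cells, so Adult 3 was its highest library. It was at 0 in Aged cells and at 0 and 32.3 CPM in EAE cells. The log2 difference of Calb2 was 3.54 (edgeR adjusted p = 0.0995), and without Adult 1 it was -0.08. Over the summed Juvenile UMIs Reln was at least 18.1-fold higher than the 41.9 CPM that 3 UMIs would be in Adult 1. Ndnf, Tac2 and Syn2 had 0 UMIs in Adult 1 against Juvenile means of 238, 240 and 218 CPM. Ndnf stood at 1342 CPM in Adult 3, above every Juvenile library, and its log2 difference was -1.14 when Adult 2+3 stood for Adult. Neurod1, a transcription factor of young excitatory neurons, stood at 332, 1030, 182 and 59.4 CPM in Juvenile, at 69.8, 278 and 134 CPM in Adult, and at 0 in all Aged and EAE libraries.

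Genes of immature neurons were found at every age, and none was called between Juvenile and Adult neuronal cells. Dcx (chromosome X, 143855842 to 143933311, minus strand) stood at 393, 422, 299 and 288 CPM in Juvenile 1 to 4, at 698, 740 and 134 CPM in Adult, at 541 and 1180 CPM in Aged and at 436 and 549 CPM in EAE cells. Adult 3 was the lowest library and Aged 2, with 4 cells, the highest. Since Dcx helped to choose the cells, it was tested in cells chosen on Snap25, Syt1 and Tubb3 alone (155 Juvenile and 23 Adult cells). There it differed by -0.76 on the log2 scale (SE 0.30) and was not called, in a fit with a single Adult unit. It had a mean of 329 CPM in the Juvenile units and stood at 666 CPM in Adult 1 and 436 CPM in EAE 1. EAE 2 had 9 such cells and was left out. With 3 UMIs of the other genes, which brought in Adult 2+3, it differed by -0.27 (SE 0.47, adjusted p = 0.781), with means of 285 CPM in Juvenile and 400.3 CPM in Adult units. Snap25, tested likewise, differed by 0.33 (SE 0.53, adjusted p = 0.724). Tubb3 could be tested only with 3 UMIs of the other genes, where it differed by 0.04 (SE 0.28, adjusted p = 0.969), and Syt1 was too rare to be tested.

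Of 20 genes of immature neurons 18 were tested, 0 were called and 10 were positive, with a median log2 difference of 0.10 (-0.16 with RLE scaling) against 0.42 over all genes. Stmn1, which destabilizes microtubules, differed by 0.42 (SE 0.31, edgeR adjusted p = 0.464) and stood at 4860 CPM in Juvenile and 4231 CPM in Adult units. Marcksl1, an actin-binding protein, differed by 0.65 (SE 0.36, adjusted p = 0.332). The whole list summed to 20931 to 29637 CPM in Juvenile libraries and to 27157, 34888 and 14627 CPM in Adult libraries. Map1b, a microtubule-associated protein of growing axons, differed by -0.95 (SE 0.28, adjusted p = 0.132) and by 0.12 without Adult 1. Of 25 genes of synaptic vesicle release 4 passed the filter and 0 were called, and 0 of 24 voltage-gated channel genes passed.

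Because the share of cells with each panel varied between libraries, the cells with at least 2 UMIs of the GABAergic panel were compared by themselves, a comparison added after the data were seen. The units were Juvenile 1+2 (16 cells), Juvenile 3+4 (77), Adult 1 (23), EAE 1 (18) and EAE 2 (10), and the panel genes and rule genes were left out of the test. Here edgeR called 229 of 1949 genes (11.7%), 173 higher in Juvenile (8.88%) and 56 lower (2.87%). With RLE scaling 155 were higher and 82 lower, and the median over all genes was 0.155 in place of 0.329. DESeq2 called 12, and edgeR called 49 without Juvenile 1+2 and 69 without Juvenile 3+4. The comparison is of Juvenile with Adult 1, the only Adult unit. With every unit kept and Adult 1 left out, so that the 4 such cells of Adult 2+3 stood for Adult, 74 genes were called, but 3 UMIs are 344 CPM in those cells. With the EAE libraries summed 405 of 2654 genes were called, 295 higher and 110 lower, with 1 residual degree of freedom, from the 2 Juvenile units. Median depth was 5447.5 and 3908 UMIs in the Juvenile units, 2669 in Adult 1 and 2686 and 2237.5 in the EAE units.

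Cell cycle genes were higher in Juvenile cells with GABAergic markers than in those of Adult 1. There Ccnb1, Cdk1, Cenpf and Mki67 had 0 UMIs, and Birc5, Mcm6, 2810417H13Rik, Cdca8, Ccna2 and Tyms stood at 15.6 or 31.2 CPM. Such genes passed the filter on low counts through other units, so the tally and median below follow in part from the filter. Of 18 listed genes 15 were tested, 12 were higher and 0 lower, with a median log2 difference of 3.54, or 3.31 with the 4 genes at 0 UMIs in Adult 1 set to their lower bound. Hmgb2, a chromatin protein of dividing progenitors (chromosome 8, 57511907 to 57515999, plus strand), stood at 3505 and 2326 CPM in the Juvenile units, 312 CPM in Adult 1 and 1962 and 878 CPM in the EAE units. Its log2 difference was 3.31 (SE 0.45, edgeR adjusted p = 4.4e-09). The Juvenile units lay above all others, and both EAE units lay above Adult 1. 2810417H13Rik, which encodes a replication clamp-associated factor, stood at 1172 and 984 CPM in Juvenile, 31.2 CPM in Adult 1 and 592 and 316 CPM in EAE cells (log2 difference 5.16, SE 0.76, adjusted p = 1.97e-08).

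Top2a, the topoisomerase that untangles chromosomes, stood at 690 and 962 CPM in Juvenile, 203 CPM in Adult 1 and 841 and 491 CPM in EAE cells (log2 difference 2.17, SE 0.54, edgeR adjusted p = 0.00231), so its EAE values overlapped the Juvenile ones. Rrm2, a subunit of ribonucleotide reductase, stood at 570 and 802 CPM in Juvenile and 125 CPM in Adult 1 (log2 difference 2.61, SE 0.62, adjusted p = 0.00151). Within the first Juvenile unit the 4 cells of Juvenile 2 were low, with Top2a at 57.8 CPM and Rrm2 at 116 CPM, both below Adult 1, and Ccnb1, Cdk1, Ccna2 and Nusap1 at 0 UMIs. In Aged 1, with 6 cells, Top2a stood at 880 CPM, inside the range of the Juvenile units. All of it came from 1 cell, which held 52 UMIs of the cell cycle list. In Adult 1, 1 cell held 43 UMIs of that list and each other cell at most 3. Cenpa, Ccnb1 and Cks1b, which act at the centromere and in mitosis, had 0 UMIs in Adult 1 against Juvenile means of 855, 669 and 619 CPM. Over the summed Juvenile UMIs, and against 3 UMIs in Adult 1, which is 46.8 CPM, they were at least 16.6-fold, 12.9-fold and 12.9-fold higher. Hmgb2 and 2810417H13Rik passed in all 11 alternatives tried and Top2a and Rrm2 in 9 of 11. DESeq2 called 2 of 16 cell cycle genes, the other alternatives called 8 to 15, and in each alternative 0 were lower.

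**Figure D4:**
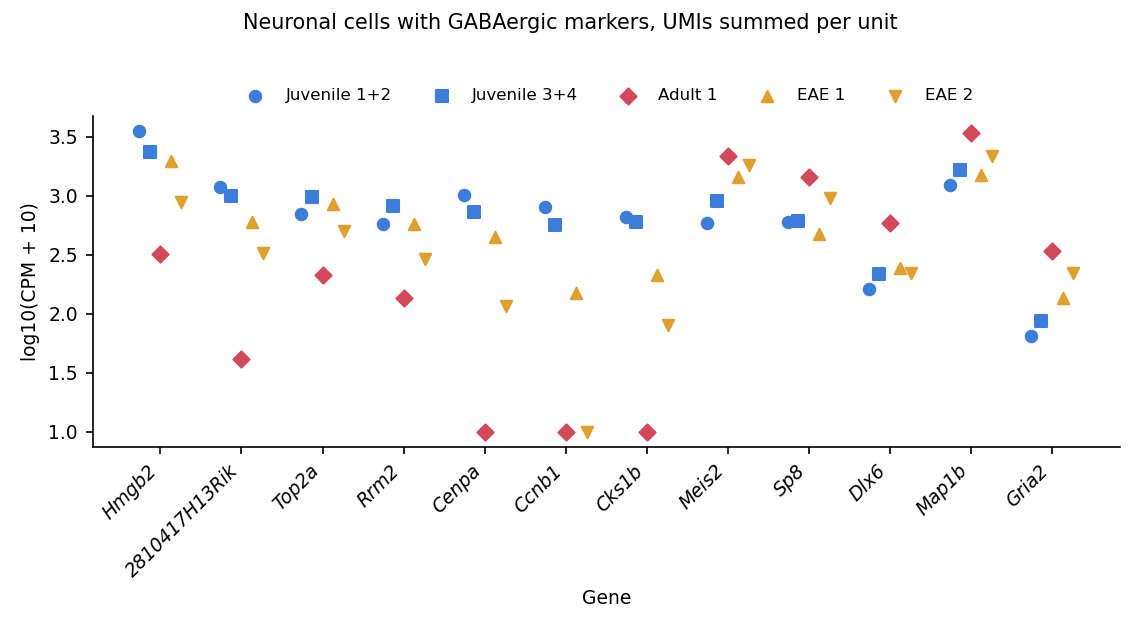
Levels of 12 genes (horizontal axis) in cells with GABAergic markers, as log10(CPM + 10) (vertical axis), with 1 point per unit for Juvenile 1+2, Juvenile 3+4, Adult 1, EAE 1 and EAE 2. Hmgb2 lies between 2326 and 3505 CPM in the Juvenile units and at 312 CPM in Adult 1, whereas Meis2 lies at 581 and 888 CPM in the Juvenile units and at 2168 CPM in Adult 1.

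Shares of cells with cell cycle transcripts were counted as a description. At least 2 UMIs of the cell cycle list were found, after thinning, in 57 of 88 Juvenile cells with GABAergic markers (64.8%, exact 95% interval 53.9 to 74.7), 5 of 25 Adult (20%, 6.83 to 40.7), 2 of 7 Aged and 10 of 27 EAE cells (37.0%, 19.4 to 57.6). By library the share was 75%, 75%, 55.6% and 69.4% in Juvenile 1 to 4, 22.7% in Adult 1, 0 of 3 cells in Adult 2, 40% and 0 of 2 cells in Aged, and 44.4% and 22.2% in EAE. Without thinning it was 67.7%, 29.6%, 22.2% and 42.9% in the 4 groups. All Juvenile libraries lay above the others, though Juvenile 2 had only 4 cells with GABAergic markers. Aged 1 had 6 before the limit on depth, and Adult 3 had no such cell of this depth. In microglial cells, a lineage that also divides in young brain, the same list was found in 22.5% of Juvenile, 6.74% of Adult and 8.24% of EAE cells, and in endothelial cells it summed to 822 to 1181 CPM in Juvenile and 225 to 264 CPM in Adult libraries. Levels in these other cells were thus also higher in Juvenile libraries, and the part of free RNA in the neuronal values was not tested. In neuronal cells the list summed to 5191, 1030, 5123 and 6952 CPM in Juvenile 1 to 4, so Juvenile 2 lay below the other 3.

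Meis2, Sp8 and Dlx6, transcription factors of the GABAergic lineage, were lower in Juvenile than in Adult 1 cells with GABAergic markers. These cells were chosen by at least 2 panel UMIs without thinning, at the unlike depths given above. The panel held Dlx6os1, which may share reads with Dlx6. The part of this choice in the differences was not tested. Counts of called genes in this comparison, here and below, stand beside 8.88% higher and 2.87% lower of all 1949 genes tested. Of 23 identity genes 7 were tested, 3 were lower and 0 higher. Meis2 stood at 581 and 888 CPM in the Juvenile units, 2168 CPM in Adult 1 and 1417 and 1825 CPM in the EAE units (log2 difference -1.39, SE 0.35, edgeR adjusted p = 0.00231). Sp8 stood at 592 and 595 CPM in Juvenile, 1435 CPM in Adult 1 and 467 and 948 CPM in EAE cells (log2 difference -1.15, SE 0.40, adjusted p = 0.0395). Dlx6 stood at 153 and 207 CPM in Juvenile, 577 CPM in Adult 1 and 234 and 211 CPM in EAE cells (log2 difference -1.48, SE 0.48, adjusted p = 0.0273). The units drew on different clusters. Cluster 4, whose globin UMIs came mostly from 1 cell, held 22 of 26 neuronal cells of Adult 1 and 2 of 164 Juvenile cells. Meis2 stood at 2070 CPM and Sp8 at 1127 CPM in that cluster. Clusters 1, 2 and 6 held 38, 38 and 19 Juvenile cells, and Meis2 and Sp8 stood at 750 and 539 CPM in cluster 2, the mitotic one. Malat1, a nuclear RNA, was also lower in the Juvenile units than in Adult 1 (14339 and 24605 against 64905 CPM), and ribosomal protein genes summed to 138106 and 129623 CPM against 73669 CPM. The part of these in the differences was not tested. Sp9, a relative of Sp8, differed by -0.54 (SE 0.44, adjusted p = 0.467). Over 11 alternatives Meis2 passed in 7 and Sp8 and Dlx6 in 5 each, all without a change of direction.

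Gria2, which encodes an AMPA receptor subunit, was lower in Juvenile cells with GABAergic markers (54.8 and 77.1 CPM against 327 CPM in Adult 1; log2 difference -2.06, SE 0.62, edgeR adjusted p = 0.0144), and so was Map1b (log2 difference -1.10, SE 0.32, adjusted p = 0.0116; 0.29 when Adult 2+3 with 4 cells stood for Adult). Of 16 tested genes of immature neurons 1 was lower, Stmn4, and 0 were higher, with a median of 0.0025 (-0.16 with RLE scaling) and Stmn1 at 0.66 (SE 0.34, adjusted p = 0.202). Of 8 tested immediate early genes, which rise when cells are stimulated or dissociated, 0 were called. Fos differed by -1.44 (SE 0.53, adjusted p = 0.0542).

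Transcripts of other lineages moved with the groups. In neuronal cells the 8 endothelial markers summed to 176 to 222 CPM in Juvenile libraries, 805 to 1103 CPM in Adult, 880 and 1348 CPM in Aged and 545 and 581 CPM in EAE libraries. The 8 microglial markers summed to 143 to 338 CPM, 278 to 963 CPM, 880 and 1011 CPM, and 607 and 452 CPM. In Adult cells 0 of the 8 endothelial and 0 of the 8 microglial markers were at 0 UMIs. The choroid plexus markers summed to 2960 CPM in Adult 1, 925 and 939 CPM in Adult 2 and 3 and at most 537 CPM elsewhere. Red blood cell markers summed to 17969 CPM in Adult 1, where 1 cell held 1140 of 1287 of those UMIs, and to 2178 CPM without that cell. Among the genes lower in Juvenile cells with GABAergic markers were 3 of 3 tested endothelial markers, 3 of 4 red blood cell markers, 3 of 5 choroid plexus markers and 1 of 3 microglial markers, and the largest differences were those of Hba-a1 (-6.53), Hba-a2 (-6.38) and Kl (-6.05). That ranking is by the naming rule given with the processing. Hba-a1 differed by 5.28 when Adult 2+3 with 4 cells stood for Adult. The part of other lineages' transcripts in the other differences was not tested. Leaving out the 1 cell of Adult 1 that was rich in other lineages' markers gave 256 called genes of 1923, 201 higher and 55 lower, with such transcripts still present in the other cells of Adult 1.

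**Figure D5:**
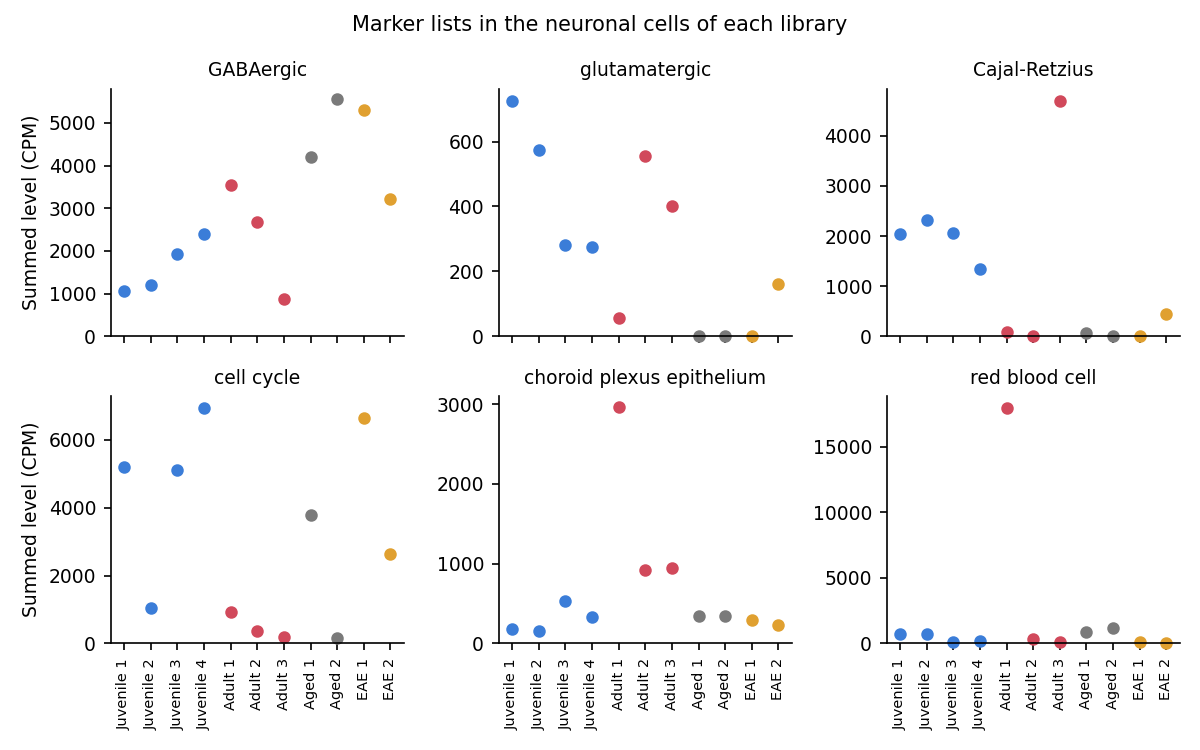
Summed CPM of 6 marker lists in the neuronal cells of each of the 11 libraries, with a linear vertical axis from 0 in each panel. The GABAergic panel lies between 1069 and 2409 CPM in the Juvenile libraries and at 3227 CPM or more in Adult 1 and all Aged and EAE libraries, with Adult 2 at 2684 CPM and Adult 3 at 872 CPM, below every Juvenile library, the cell cycle list lies at 5123 to 6952 CPM in Juvenile 1, 3 and 4 and at 1030 CPM in Juvenile 2 and at 6634 CPM in EAE 1, and red blood cell markers stand at 17969 CPM in Adult 1.

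Between EAE and Adult neuronal cells, which were matched in age, edgeR called 0 of 2209 genes (percent called 0), 311 had an unadjusted p under 0.05, the smallest adjusted p was 0.165, and DESeq2 called 5. Of 14 tested cell cycle genes 14 were positive, with a median log2 difference of 2.86 for EAE against Adult 1. It was 2.34 with genes at 0 UMIs in Adult 1 at their bound. Ccnb1, Cenpf, Cdk1 and Mki67 had 0 UMIs in Adult 1, and Birc5, Mcm6, 2810417H13Rik, Cdca8 and Ccna2 stood at 14.0 or 27.9 CPM there. Such genes passed the filter on low counts through other units, so the shared sign follows in part from the filter. Of 15 tested genes of GABAergic identity 0 were called, with a median of -0.25 (0.09 with the EAE and Aged pairs summed). Aged cells were too few for the limit of 10 cells per unit. When every unit was kept, edgeR called 0 of 1195 genes between Aged and Adult cells, with 133 at an unadjusted p under 0.05. With both Aged libraries summed, which reached 10 cells, it called 0 of 3042, with 268 at an unadjusted p under 0.05. DESeq2 was not run on them.

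Juvenile against EAE cells, a contrast added after the data were seen, gave 3 called genes of 2209 (0.136%), 1 higher (0.0453%) and 2 lower (0.0905%). The count was 30 without Juvenile 1+2, 33 without Juvenile 3+4, 7 without either EAE unit and 0 with a threshold of 10 UMIs. With the near-identical EAE libraries summed, edgeR called 0 of 3042 genes (323 at an unadjusted p under 0.05), and the adjusted p of B2m, H2-D1 and Pcp4 was 0.154, 0.112 and 0.196. B2m, which encodes the light chain of MHC class I, stood at 150 and 92.1 CPM in the Juvenile units and at 1137 and 1646 CPM in the EAE units, against 419 CPM in Adult 1 and 135 and 674 CPM in the Aged libraries (log2 difference -3.13, SE 0.35, edgeR adjusted p = 0.0278). H2-D1, an MHC class I heavy chain, averaged 64.9 CPM in Juvenile and 892 CPM in EAE units (log2 difference -3.33, SE 0.38, adjusted p = 0.0278). Pcp4, a calmodulin-binding peptide, averaged 519 CPM in Juvenile units and was at 0 UMIs in EAE cells, over the summed Juvenile UMIs at least 15.2-fold higher than 3 UMIs would be (adjusted p = 0.0409). B2m passed in 18, H2-D1 in 17 and Pcp4 in 16 of 20 alternatives. Against Adult 1, EAE cells differed by 1.53 for B2m (adjusted p = 0.218) and 2.07 for H2-D1 (adjusted p = 0.180). Lymphocyte markers summed to 678 CPM in EAE 2 and to 0 in EAE 1. Of their 21 UMIs, only 1 cell held 2 or more. Microglial markers stood at 452 CPM in EAE 2 and 607 CPM in EAE 1. The part of lymphocyte and microglial transcripts in the MHC values was not tested.

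In cells with GABAergic markers edgeR called 31 of 1949 genes between Juvenile and EAE units (1.59%), 19 higher (0.975%) and 12 lower (0.616%). The count was 5 without Juvenile 1+2, 11 without Juvenile 3+4, 122 without EAE 1, 16 without EAE 2, 3 with DESeq2 and 27 with the EAE libraries summed. The genes with the largest differences by the naming rule were Erdr1, Ccnb1 and Cdk6, higher in Juvenile cells, and AW112010, H2-K1 and Lyz2, lower. Ccnb1, a mitotic cyclin, differed by 3.01 (SE 0.53, adjusted p = 1.87e-05), and H2-K1, another MHC class I heavy chain, by -5.07 (SE 0.87, adjusted p = 1.16e-05), from 8.56 CPM to 337 CPM. Of 15 tested cell cycle genes 4 were higher (Ccnb1, Birc5, Hmgb2 and 2810417H13Rik) and 0 lower, and this number ran from 0 to 11 over the alternatives. Lyz2 is a gene of myeloid cells, and of 3 tested endothelial markers 2 were lower in Juvenile cells.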

How the data were processed

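Single-cell 3′ libraries of mouse cortex were sequenced by the authors. Per the labels' processing notes, reads were handled with bcl2fastq 2.19.1.403, UMI-tools 0.5.3, STAR 2.5.3a and featureCounts 1.6.1 against mm10, and the annotation release is not given in the sources used here. The authors deposited UMI counts per gene and barcode, without normalization, for 54646 barcodes. Cells were kept with over 500 genes, below 6000 genes, and mitochondrial transcripts below 25%. Members, gene lists and tests were chosen with earlier results of these data known, and the study's own test over cells was replaced by tests over libraries.

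Each cell with at least 1500 UMIs was thinned to that number (seed 1) for shares, and shallower cells were left out. These shares and that of neuronal cells, a family of 4, were compared by two-sided exact permutation tests over libraries. Summed counts were tested with edgeR 4.0.16 (R 4.3.3; TMM, filterByExpr, robust quasi-likelihood test, Benjamini-Hochberg adjustment at 0.05), and with DESeq2 1.42.0 as an alternative. The 11 genes of the rule were left out, and DESeq2 was run without filterByExpr. Clusters were found in scanpy 1.11.5 (Python 3.11.15; 1500 variable genes, 15 principal components, 10 neighbours, Leiden resolution 0.6). Genes named were Gad1, Gad2, Dlx1, the 4 required genes, Slc12a2, Slc12a5, Grin2a, Grin2b, the 4 most abundant of each list, and the called genes with the largest differences (10 in each direction for the planned Juvenile and Adult comparison, which called none, and 3 elsewhere) with at least 50 CPM and units that did not overlap. Other genes named were chosen after their values were seen. Some genes are not reported here. Gene positions are from GENCODE M21 (GRCm38, the assembly of mm10). Counts were also simulated at the depths of the neuronal cells. Genes of like abundance were given the same spread, and no difference in cell mix was built in. The rates may thus be too high for the real counts and do not say what the real test could detect. Of genes changed 4-fold 56% were recovered, and of genes changed 8-fold 97% (2259 genes, 17 of 170 calls false). For cells with GABAergic markers it was 75% and 96% (1933 genes, 7 of 178 calls false).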

Additional observations from a re-analysis of the deposited data

Results flagged for a closer look

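Of 47 values examined over the 4 Juvenile libraries, 4 had 1 library far from the other 3 by Dixon's test, which chance gives in about 1 in 20 groups. The share of neuronal cells was 0.549% in Juvenile 2 and 1.31% in the next library. Gad1 was found after thinning in 0% of the 14 neuronal cells of Juvenile 2 and in 7.84% to 8.57% of those of the other libraries, and a count of 0 allows up to 21.4% there. Oligodendrocyte markers summed to 14552 CPM in Juvenile 3, where 1 cell of 32105 UMIs held 4440 of 4471 of them, and to 113 CPM without it. Mural markers summed to 971 CPM in Juvenile 4, where 1 cell held 218 of 229 UMIs, and to 48.9 CPM without it.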

How the results depend on the processing

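Each setting changed 1 choice, with these exceptions. Adult 1 was left out together with the minimum of cells, and the replicate block was fitted over libraries. DESeq2 was run without the filter on low counts, on 9176 genes in neuronal cells and 7064 in cells with GABAergic markers. The share of neuronal cells kept its direction in all alternatives (0.697 to 1.05 points when 1 library was left out), none of which dropped the exclusions. The Dlx1 share differed by -23.4 to 10.6 points when 1 library was left out and by 0.98 with a threshold of 3 UMIs. The Dlx2 share differed by -9.46 to 16.5 when 1 library was left out, by -3.50 over units and by -1.39 with a threshold of 10 UMIs. Genes called between Juvenile and Adult cells, 0 as reported, numbered 100 with libraries as replicates, 2 with RLE scaling, 179 without a filter, 5 with DESeq2, 93 with only these groups, 39 to 64 with 1 unit left out, 30 without a minimum of cells, 1 without cells rich in other lineages' markers, 3 with a threshold of 10 UMIs, 55 without Dcx, 5 without cells led by other lineages and 89 with the rule on thinned cells. For EAE against Adult, 0 as reported, they numbered 31 with libraries, 62 without a filter, 5 with DESeq2, 49 with only these groups, 16 to 38 with 1 unit left out, 9 without a minimum, 2 without it and Adult 1, and 1 without marker-rich cells. For cells with GABAergic markers, 229 as reported, they numbered 378 with libraries, 12 with DESeq2, 393 with only these groups, 49 to 69 with 1 unit left out, and 74 without a minimum and Adult 1, and 405 with the EAE libraries summed. For Juvenile against EAE neuronal cells, 3 as reported, they numbered 8 with libraries, 107 without a filter, 9 with DESeq2, 7 to 33 with 1 unit left out, 6 with only these groups, 6 without a minimum, 12 without it and Adult 1, 6 without marker-rich cells, 12 and 0 with thresholds of 3 and 10 UMIs (edgeR, 322 at an unadjusted p under 0.05 with 10), 7 without cells led by other lineages, 0 with the EAE and Aged pairs summed (edgeR, 323 at an unadjusted p under 0.05) and 30 with the rule on thinned cells. For the same groups in cells with GABAergic markers, 31 as reported, they numbered 20 with RLE scaling, 3 with DESeq2, 5 to 122 with 1 unit left out, 14 with only these groups and 12 without a minimum. The settings with those pairs summed, without a minimum, without Adult 1 and without marker-rich cells were chosen after seeing the data.

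Cells with at least 2 UMIs of Gad1 and Gad2 gave no test at 10 cells per unit, for want of residual degrees of freedom. With libraries 98 of 1309 genes were called, and without a minimum 36 of 657, or 27 without Adult 1. Cells with 0 UMIs of both had no Adult unit, and without a minimum 45 of 238 genes were called, or 0 without Adult 1 (edgeR, 28 at an unadjusted p under 0.05; DESeq2 was not run). Same-numbered libraries of different groups had deviations with r = 0.0894 and 0.130 (Juvenile and EAE), so the numbers were not shown to pair them. With a replicate block 261 genes were called between Juvenile and Adult, 194 between EAE and Adult and 100 between Juvenile and EAE. No paired fit was possible in cells with GABAergic markers. Tubb3, in cells chosen on the other genes, differed by -0.0902 over libraries.

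Of 580 values of 41 named genes over the alternatives, 572 kept their direction. The other 8 all came without a minimum and without Adult 1: Gad1 0.68, Gad2 0.18, Dlx1 0.65, Calb2 -0.0755, Ndnf -1.14 and Map1b 0.12 in neuronal cells, and Map1b 0.29 and Hba-a1 5.28 in cells with GABAergic markers. The cause was not tested, and that Adult unit held 8 and 4 cells. Group medians ran from 2137.5 to 4284 UMIs per cell. A gene under about 3.01 CPM over all cells could be missed, though Grin2a was seen with 1 UMI.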

Other observations

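The following genes of cells with GABAergic markers were chosen after their values were seen. Of 79 ribosomal protein genes tested, 34 were higher in Juvenile units than in Adult 1 (edgeR, adjusted p under 0.05) and 0 were lower, against 8.88% higher and 2.87% lower of all 1949 genes tested. Together they summed to 138106 and 129623 CPM in the Juvenile units, 73669 CPM in Adult 1, 104363 CPM in Adult 2+3, 106360 and 87303 CPM in the Aged and 132759 and 156546 CPM in the EAE units. Malat1, a nuclear noncoding RNA, stood at 14339 and 24605 CPM in the Juvenile units, 64905 CPM in Adult 1, 52698 CPM in Adult 2+3, 49797 and 45645 CPM in Aged and 31146 and 49245 CPM in EAE units (log2 difference -1.60, SE 0.40, edgeR adjusted p = 0.0023 for Juvenile against Adult).

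Cells with cell cycle transcripts and without GABAergic markers numbered 28 in Juvenile, 3 in Adult and 0 in Aged and EAE libraries. Since 9 of 10 Aged and 28 of 29 EAE cells carried GABAergic markers, hardly any other cells could be counted there.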
